A study of Mus musculus with 4 samples.

Results

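The Vmn1r genes of mouse chromosome 7 encode vomeronasal type 1 receptors (V1Rs), and H3K9me3 peaks over and around them were compared between control cells and cells treated to delete Setdb1. All protein-coding genes of chromosome 7 whose symbol begins with Vmn1r were taken, 126 in the RefSeq table for GRCm38.p6, the assembly that mm10 names. A chromosomal position was given for 124 of them, among 21775 protein-coding genes with such a position. Vmn1r186 and Vmn1r187 had scaffold positions and have no value. H3K9me3 is a histone mark of silenced chromatin, and SETDB1 is one of the enzymes that deposit it.

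The cells were cultured muscle stem cells from mice with loxP-flanked Setdb1 and a tamoxifen-inducible Cre recombinase driven by Pax7, a gene active in these cells. The label of the control library reads Setdb1lox/lox;Pax7GakaCreERT2 with Ethanol, and that of the treated library reads Setdb1lox/lox;Pax7GakaCreERT3 with 4-Hydroxytamoxifen. Both groups thus carried the floxed allele and the Cre, and treatment lasted 72 h. The sources used here do not give the age of the mice. Each condition had 1 H3K9me3 library from micrococcal nuclease-cut chromatin, so the differences given have no replicate check and none was tested. The 2 deposited broad peak lists are called the ethanol list, for the control cells, and the tamoxifen list, for the cells treated to delete Setdb1. They held 105709 and 113503 peaks on the main chromosomes, of which 6399 and 7779 were on chromosome 7, and the read depth behind them is unknown. Pax7, Myf5, Myod1 and Des, genes of muscle stem cells and muscle, were free of peaks in both lists, windows included. Peaks covered 0.888% of the Setdb1 window in the ethanol list and 0% in the tamoxifen list, which is no measure of how completely the gene was deleted.

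V1Rs are G protein-coupled receptors of sensory neurons in the apical layer of the vomeronasal organ, where they detect pheromones and other chemical cues. Each such neuron is thought to express 1 receptor gene from 1 allele, and all other V1R genes in it stay silent. The genes have a short coding sequence, usually without introns, and lie in clusters that grew by repeated duplication. Older names sort them into subfamilies such as V1rd, V1re and V1rg.

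Upstream sequences are printed first, since the members differed in how much of this sequence they shared with other genes. RefSeq upstream windows of 300 bases, 250 before to 50 after the start of the gene model (GRCm38.p6), were matched for 115 of the 124 placed members. The model began at the ATG start codon in 103 of them, so the window describes sequence around the coding start and not a mapped transcription start. Vmn1r56, Vmn1r64, Vmn1r66, Vmn1r88, Vmn1r89, Vmn1r115, Vmn1r132, Vmn1r178 and Vmn1r184 had no such window. Of the 6 sequences shown, 5 belong to the largest cluster and 1, Vmn1r75, to a cluster nearer the centromere. Capitals at the end mark a stretch of 17 bases of coding sequence, gaggaagtggctcttca. The single capital before it in Vmn1r159 marks the 1 base that differs from Vmn1r122.
Vmn1r111 (chr7:20703167-20703466, minus strand, no peak in either list, shared letter for letter by 6 members): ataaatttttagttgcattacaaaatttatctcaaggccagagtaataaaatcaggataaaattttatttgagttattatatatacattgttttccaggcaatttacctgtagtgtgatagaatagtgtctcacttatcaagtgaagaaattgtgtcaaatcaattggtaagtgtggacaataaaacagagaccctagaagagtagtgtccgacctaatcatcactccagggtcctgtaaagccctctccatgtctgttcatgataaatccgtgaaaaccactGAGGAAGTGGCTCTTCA
Vmn1r122 (chr7:21134079-21134378, minus strand, no peak in either list): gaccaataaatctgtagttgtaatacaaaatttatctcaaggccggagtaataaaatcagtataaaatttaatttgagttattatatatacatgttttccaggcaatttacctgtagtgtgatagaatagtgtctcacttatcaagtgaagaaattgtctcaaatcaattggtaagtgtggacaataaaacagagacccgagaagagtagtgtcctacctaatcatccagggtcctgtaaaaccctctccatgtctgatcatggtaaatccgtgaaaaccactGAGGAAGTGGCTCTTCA
Vmn1r159 (chr7:22843556-22843855, minus strand, peak in the ethanol list over part of this stretch and none in the tamoxifen list): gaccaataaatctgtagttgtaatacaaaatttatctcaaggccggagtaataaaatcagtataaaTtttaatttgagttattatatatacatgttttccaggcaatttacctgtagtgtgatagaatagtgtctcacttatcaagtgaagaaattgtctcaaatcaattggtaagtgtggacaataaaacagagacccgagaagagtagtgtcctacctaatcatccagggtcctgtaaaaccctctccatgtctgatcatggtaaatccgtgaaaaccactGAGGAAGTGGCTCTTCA
Vmn1r158 (chr7:22790733-22791032, minus strand, inside a peak in both lists): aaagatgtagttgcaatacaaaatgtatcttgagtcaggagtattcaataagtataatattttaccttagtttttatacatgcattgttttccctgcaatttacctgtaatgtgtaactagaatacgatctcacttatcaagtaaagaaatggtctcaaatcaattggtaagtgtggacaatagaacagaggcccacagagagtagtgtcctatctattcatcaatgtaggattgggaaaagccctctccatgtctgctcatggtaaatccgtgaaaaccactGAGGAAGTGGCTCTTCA
Vmn1r175 (chr7:23809151-23809450, minus strand, best covered gene of the largest cluster): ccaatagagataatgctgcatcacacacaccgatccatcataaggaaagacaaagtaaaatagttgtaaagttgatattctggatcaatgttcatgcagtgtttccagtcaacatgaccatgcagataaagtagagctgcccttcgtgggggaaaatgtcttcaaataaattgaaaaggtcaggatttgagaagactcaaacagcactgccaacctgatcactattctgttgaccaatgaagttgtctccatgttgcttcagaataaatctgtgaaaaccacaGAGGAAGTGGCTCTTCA
Vmn1r75 (chr7:11880093-11880392, plus strand, inside a peak in the ethanol list alone): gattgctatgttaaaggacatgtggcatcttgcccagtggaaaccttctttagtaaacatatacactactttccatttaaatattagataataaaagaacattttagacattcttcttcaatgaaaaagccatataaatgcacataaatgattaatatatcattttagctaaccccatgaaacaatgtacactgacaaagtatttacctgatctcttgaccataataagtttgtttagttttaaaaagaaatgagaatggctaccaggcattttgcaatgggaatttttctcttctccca

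The 17-base stretch stood at the end of the window in 60 of the 115 members, and all 60 were in the largest cluster. It was in 62 of the 32851 upstream windows of the table on either strand (0.189%), and in 0 of the 91 windows of Vmn1r genes on other chromosomes. It was picked after the sequences had been seen, and no other motif was searched. In 53 of the 60 members with it the gene window had no peak in either list. The other 7 included Vmn1r158, Vmn1r159 and Vmn1r175, so the stretch was found in covered and uncovered members. Of the 23 members of the same cluster with an upstream window but without the stretch, 10 had no peak. Over all 86 members of that cluster, 75.6% had no peak.

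Across the 124 members, coverage by H3K9me3 peaks was uneven and differed little in total between the lists. Each gene was taken with 5 kb on both sides as its window, and coverage is the percent of window bases inside a peak. The mean was 9.17% in the ethanol list and 10.2% in the tamoxifen list, a difference of 1.01 percentage points, and the median was 0% in both. The other 1901 protein-coding genes of chromosome 7 had means of 4.82% and 5.67%, a difference of 0.852 points. No peak touched the window of 69 members in either list (55.6%), beside 64.4% of all protein-coding genes and 60.1% of the other genes of chromosome 7. Peaks were present in both lists for 47 members, in the ethanol list alone for 6 and in the tamoxifen list alone for 2.

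Among the 55 members with a peak in either list, the mean was 20.7% in the ethanol list and 22.9% in the tamoxifen list. Coverage was higher in the tamoxifen list for 32 of them and lower for 23. A difference of over 10 points towards more coverage was found for 16 members, 12.9% of the 124, where the share of all protein-coding genes was 2.4 percent. A difference of over 10 points towards less coverage was found for 10 members (8.06%), where the share of all protein-coding genes was 2.53 percent. Such differences are called gains and losses below, as a description of the lists. Among the other genes of chromosome 7 the shares were 6.89 and 3.73 percent. Genes without a peak cannot differ, so the 55 covered members are better read against other covered genes. Their shares were 29.1% more and 18.2% less covered, beside 6.73 and 7.1 percent of all protein-coding genes with a peak and 17.3 and 9.35 percent of such genes on chromosome 7. Windows of Vmn1r genes were short, with a median of 10924 bases against 27219 bases for all protein-coding genes, and in a short window 1 peak covers a larger percent. Olfactory receptor (Olfr) genes of chromosome 7 had a similar median window, 10954 bases. Of the 217 with a peak in either list, 68 were gains and 56 losses, or 28.5% and 23.4% of all 239. Such differences were thus not particular to the Vmn1r genes.

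**Figure D1:**
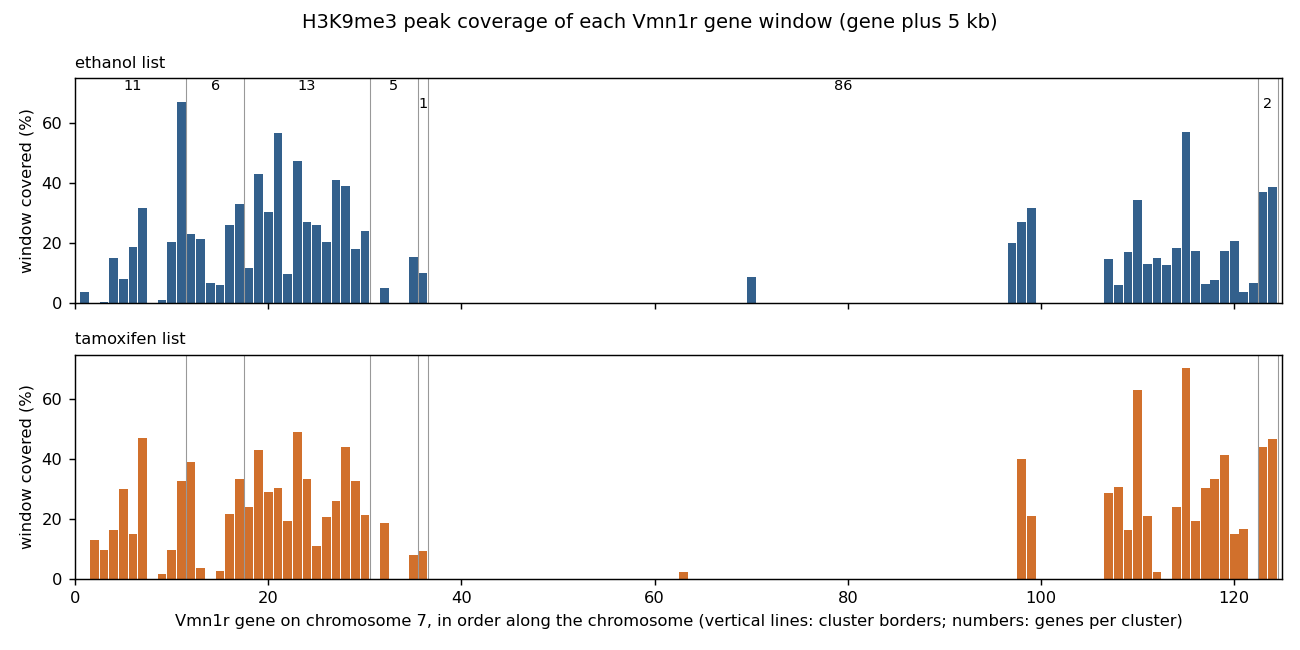
Percent of each gene window (gene plus 5 kb on both sides) covered by H3K9me3 peaks, in the ethanol list (top) and the tamoxifen list (bottom), for the 124 Vmn1r genes of chromosome 7 in order along the chromosome; vertical lines separate clusters and numbers give genes per cluster. Most of the cluster of 86 genes is at 0% in both lists, while most of its last 16 genes and most genes of the first 3 clusters are covered.

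A new cluster was begun wherever the gap between neighbouring members was over 500 kb, which gave 7 clusters, named here by the Mb at which they start. The cluster at 11.7 Mb (chr7:11669599-12362764) was covered throughout. All 13 of its members had a peak in both lists, with a mean of 30.3% in the ethanol list and 29.5% in the tamoxifen list. It holds all 11 members with V1rg names, which ran from Vmn1r72 to Vmn1r84 and had means of 29.2% and 29.4%. The lowest of the 13 were at 9.76% in the ethanol list and 10.9% in the tamoxifen list. The 500 kb on either side of this cluster were covered at 10.6% and 12.8%, and its span at 24.6% and 26.9%.

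Vmn1r73, a V1rg receptor gene in this cluster, was at 42.9% in the ethanol list and 43.0% in the tamoxifen list. Vmn1r77 was at 47.5% and 49.0%. Both thus had nearly equal coverage in the lists. Vmn1r75 was at 56.7% in the ethanol list and 30.3% in the tamoxifen list, the second largest loss among all members. Vmn1r81 was at 41.1% and 26.0%, and Vmn1r79 at 26.0% and 10.9%. These 3 were the members of the cluster that lost more than 10 points, while Vmn1r72 (11.6% and 24.0%) and Vmn1r83 (17.9% and 32.6%) had over 10 points more in the tamoxifen list.

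The cluster at 5.1 Mb (chr7:5146490-6011010) held 11 members, 8 of them with V1rd names, and had means of 15.1% and 15.9%. It contained the largest loss and one of the larger gains. Vmn1r65, at its distal border, was covered at 67.3% in the ethanol list, the highest value in that list of all members, and at 32.8% in the tamoxifen list. Vmn1r64, its neighbour, was at 20.4% and 9.69%. Vmn1r59 was at 7.98% in the ethanol list and 30.1% in the tamoxifen list, and Vmn1r61 at 31.8% and 47.0%. Vmn1r56 had no peak in the ethanol list and was at 13.01% in the tamoxifen list. Losses and gains thus stood side by side within 864.5 kb. Vmn1r62 was the member of this cluster with no peak in either list, in a stretch of 176.7 kb free of peaks.

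The cluster at 10.3 Mb (chr7:10273828-10749538) held 6 members, 4 of them with V1re names, with means of 19.3% and 16.7%, a difference that turned from -2.60 to 0.338 points when peaks were limited to a −log10 q, the authors' significance value of a peak, from 2 upward. Vmn1r71 was its best covered member in the ethanol list, at 32.9%, and was at 33.3% in the tamoxifen list. Vmn1r67 was at 21.4% and 3.70%, and Vmn1r66 at 23.0% and 39.0%. The cluster at 13.1 Mb (chr7:13084289-13220289) held 5 members and was sparsely covered, with means of 4.03% and 5.32%. Vmn1r85, Vmn1r87 and Vmn1r88 had no peak in either list there, Vmn1r86 was at 4.86% and 18.8%, and Vmn1r89, of the V1rj group, was at 15.3% and 7.79%. Vmn1r87 was the 1 member with a V1rk name. Vmn1r90 stood alone at 14.6 Mb, at 10.1% and 9.22%. At 26.3 Mb Vmn1r184 was at 37.0% and 44.0%, and Vmn1r185, a V1re receptor gene, at 38.9% and 46.6%. These last 2 genes had the highest cluster mean, 37.9% in the ethanol list and 45.3% in the tamoxifen list.

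**Figure D2:**
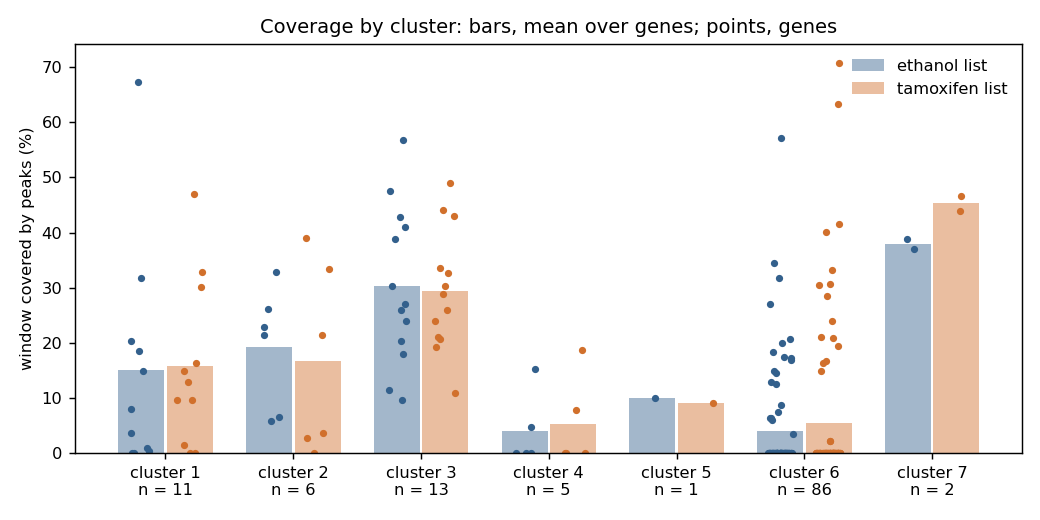
Percent of the gene window covered by peaks in the 7 clusters numbered along the chromosome, with bars for the mean over genes, points for single genes, blue for the ethanol list and orange for the tamoxifen list. In clusters 1 to 4 and in cluster 6 the 2 means lie close together beside the spread of the genes, and cluster 6, the largest, has most of its points at 0%.

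The cluster at 20.1 Mb (chr7:20101158-24055691) held 86 of the 124 members and was a long array with few peaks and a covered distal end. Its mean was 4.12% in the ethanol list and 5.54% in the tamoxifen list, and 65 of its members had no peak in either list. With peaks of −log10 q from 2 upward, the mean difference turned from 1.42 to -0.539 points. With all peaks, these 65 were most of the 69 members without a peak. The span of the cluster, 3955 kb, was covered at 3.77% and 4.88%, close to the 4.13% and 4.83% of the 500 kb on either side.

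Most of the array lay in stretches that no peak of either list entered. From 21417273 to 22763834, 1347 kb held 26 members, and it was the longest stretch free of peaks between neighbouring peaks on chromosome 7. From 20078740 to 21065014, 986.3 kb held 26 more members and ranked 3 by length on the chromosome. A stretch of 432.4 kb from 22865510 held 7 members, and one of 238.7 kb from 21108313 held 6. Together these 4 stretches covered 3004 kb and held 65 members. Of these, 64 had no peak in the window. The exception, Vmn1r157, lies beside the distal border of the longest stretch. All peak-free stretches of over 100 kb on chromosome 7, 267 in number, held 68 members.

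Between these stretches stood a small covered block of 3 neighbouring receptor genes. Vmn1r157 was at 20.0% in the ethanol list and 0% in the tamoxifen list. Vmn1r158 was at 27.1% and 40.0%, and its upstream window lay inside a peak in both lists. Vmn1r159 was at 31.7% and 20.9%. The other covered members before the distal end were Vmn1r121, at 0% and 2.25%, and Vmn1r128, at 8.69% and 0%. The 70 members before the distal end had means of 1.25% and 0.903%.

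The distal end, taken from Vmn1r167 onward after the values had been seen, held the last 16 members of the cluster. All 16 had a peak in the ethanol list, and 14 of them had one in the tamoxifen list. Their mean was 16.7% in the ethanol list and 25.8% in the tamoxifen list, a difference of 9.13 points. With peaks of −log10 q from 2 upward the means were 4.73% and 2.13%, a difference of -2.59 points, so the direction held for the full lists and not for the stronger peaks. In the full lists coverage was higher in the tamoxifen list for 11 of the 16 and lower for 5, among them Vmn1r183 (6.47% and 0%). Over 10 points more was found for 8 (50% of the 16) and over 10 points less for 2 (12.5%). These 2 were Vmn1r172 (14.96% and 2.28%) and Vmn1r173 (12.6% and 0%). Outside this cluster, the 38 other members had 7 such gains (18.4%) and 6 such losses (15.8%). The shares were 2.4 and 2.53 percent of all protein-coding genes, and 6.89 and 3.73 percent of the other genes of chromosome 7.

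Of the 6 largest gains among all members, 5 were in this distal end. Vmn1r170 was covered at 34.5% in the ethanol list and 63.3% in the tamoxifen list, the largest gain. Vmn1r178 was at 7.49% and 33.3%, Vmn1r168 at 5.97% and 30.7%, Vmn1r177 at 6.36% and 30.5%, and Vmn1r179 at 17.4% and 41.5%. Vmn1r175 was the best covered member of the whole group in the tamoxifen list, at 57.1% and 70.6%. The coding genes themselves differed more than the windows there. The mean coverage of the gene without flanks was 2.85% in the ethanol list and 22.9% in the tamoxifen list over the 16 genes. Peaks of the tamoxifen list covered Vmn1r178 completely, Vmn1r180 at 81.2%, Vmn1r181 at 76.4% and Vmn1r179 at 69.8%. The highest −log10 q of that list in these windows was, in that order, 1.71, 1.37, 1.46 and 1.52. None of this cover is thus left with peaks of −log10 q from 2 upward. In the ethanol list these genes were at 0%, 3.71%, 0% and 0%. Vmn1r172 ran the other way, with 41.9% of the gene covered in the ethanol list and 0% in the tamoxifen list.

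Protein-coding genes with other symbols stood among the Vmn1r genes. They were set apart by symbol alone, so they include V1rd19 (2.50% and 3.37%), which carries an older V1R name, and a Vmn2r gene. Whether any of the predicted genes among them is a receptor gene was not examined. Of the 26 protein-coding genes of other names inside the cluster spans, 16 had no peak in either list, and 15 of these were predicted genes with Gm symbols in the largest cluster. The others included Nlrp genes, which encode NOD-like receptor family proteins, several of them active in oocytes. Nlrp4e and Nlrp5, next to the distal end of the largest cluster, were at 8.23% and 19.0%, and at 9.86% and 18.8%. Nlrp9a, next to Vmn1r185, was at 13.2% and 41.4%. Of the 10 such genes with a peak, 8 were covered more in the tamoxifen list and 2 less, Nlrp2 (9.50% and 7.39%) and Vmn2r28 (20.1% and 7.74%), both in the cluster at 5.1 Mb.

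**Figure D3:**
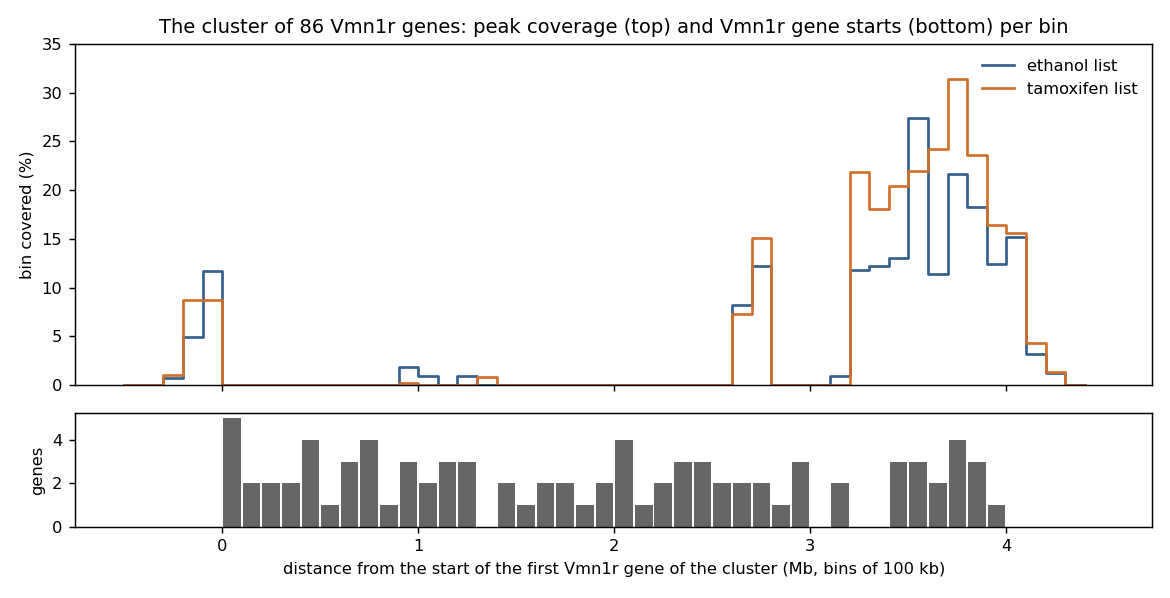
Percent of each 100 kb bin covered by peaks along the cluster of 86 genes and 500 kb on both sides (top; blue, ethanol list; orange, tamoxifen list), and Vmn1r gene starts per bin (bottom), against distance from the start of the first gene. Genes are spread along the whole cluster, while coverage is concentrated in a small block and at the distal end.

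Members of the largest cluster shared much of their upstream sequence. Each upstream window was broken into all its 50-base words, and a word was counted as repeated when it also occurred in the upstream window of another gene. Every word was repeated for 54 members, and all 54 were in the largest cluster. The gene window had no peak in either list for 53 of them, the exception being Vmn1r157. Some words were repeated for 29 members, of which 9 had no peak and which had means of 11.4% and 16.1%. All 9 were among the 22 such members of the largest cluster. Of the 70 members of that cluster before the distal end, 65 had no peak. Repeat share and position in the array thus went together and were not told apart. No word was repeated for 32 members, of which 4 had no peak, Vmn1r62, Vmn1r85, Vmn1r87 and Vmn1r148, and which had means of 21.4% and 20.3%. Of the 9 members without an upstream window, 3 had no peak. Among all protein-coding genes with an upstream window, every word was repeated for 405 of 17491, or 2.32 percent. The 351 such genes outside the group had no peak in 92.6% of cases. This compares with 666 of the 1332 genes outside the group with some words repeated and 65.4% of those with none. Genes with some repeated words thus lacked peaks least often there. Median windows were, in that order, 12353, 16169.5 and 28818 bases, so the sets also differed in window length, and its part was not tested. The measure of repeated words was chosen after the data had been seen.

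**Figure D4:**
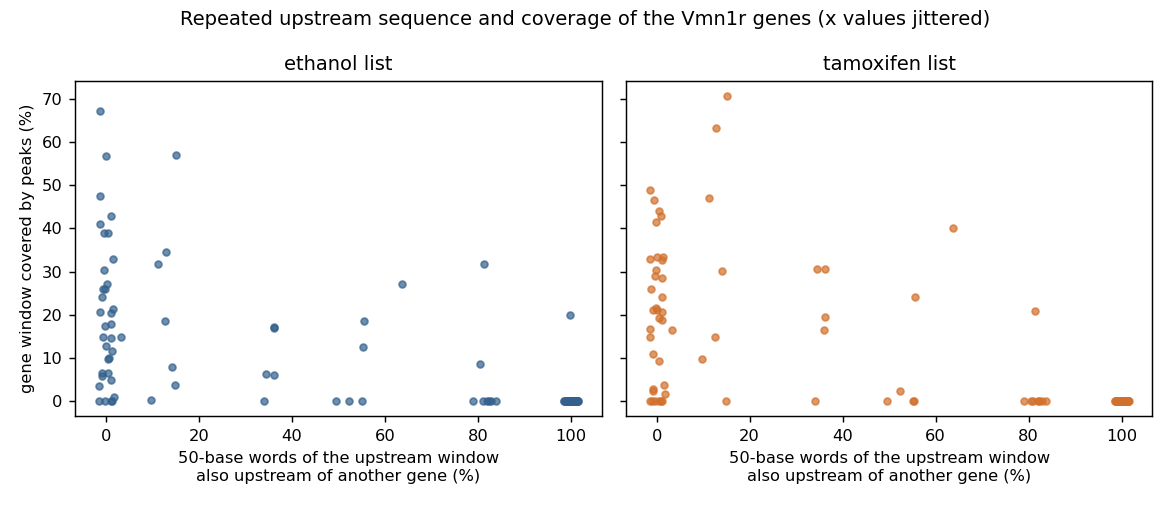
Percent of the gene window covered by peaks (y) against the percent of 50-base words of the upstream window that also occur upstream of another gene (x, points moved slightly sideways), for 115 Vmn1r genes in the ethanol list (left) and the tamoxifen list (right). Of the 54 genes at 100%, 1 is above 0% in the ethanol list and none in the tamoxifen list, while most genes at 0% have a peak.

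Identical upstream windows were common. There were 20 groups of members with the same 300 bases, holding 52 members, and 51 of these had no peak. The largest group was Vmn1r111, Vmn1r118, Vmn1r131, Vmn1r138, Vmn1r166 and Vmn1r257, whose shared window is printed above, and Vmn1r93, Vmn1r114, Vmn1r126 and Vmn1r250 formed a group of 4. Vmn1r112, Vmn1r139 and Vmn1r157 had the same window, and of these Vmn1r157 alone had a peak. Vmn1r122 and Vmn1r159 differed at 1 of 300 positions (99.7% identity), yet Vmn1r122 was at 0% in both lists and Vmn1r159 at 31.7% and 20.9%. The distance between neighbouring genes recurred as well. Of the 85 gaps between neighbours in the largest cluster, 44 (51.8%) were within 50 bases of another gap in length, 42 of them among the 70 gaps before the distal end and 2 among the 15 within it. A gap of 10018 to 10073 bases occurred 8 times.

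Repetition and absence of peaks did not coincide in every member. Vmn1r148, a V1rd receptor gene in the longest peak-free stretch, shared no word with another gene and had no peak. Vmn1r168 and Vmn1r177, both in the distal end, each had 35.1% of words repeated and had much the same coverage, as given above. Vmn1r173 and Vmn1r174, with 55.4% of words repeated each, went different ways, from 12.6% to 0% and from 18.5% to 24.1%. Reads that match several places in the genome may be dropped or placed at random before peaks are called. How the authors treated them is not given in the sources used here, and their part in the lack of peaks was not tested. No peak in the array therefore does not show that the mark was absent there.

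Within the windows the peaks of the lists overlapped in part. The windows together spanned 1394 kb, of which peaks covered 127.5 kb in the ethanol list and 140.8 kb in the tamoxifen list, a ratio of 1.10 (0.14 on the log2 scale). Elsewhere on chromosome 7 the ratio was 1.23 (0.30 on the log2 scale). Bases covered in both lists came to 52.2 kb, which is 40.9% of the ethanol-list bases and 37.0% of the tamoxifen-list bases. Outside the windows these shares were 42.3% and 34.3%. Most covered bases around the receptor genes were thus found in 1 list alone, as on the rest of the chromosome. This held for the peaks as deposited, and with peaks joined within 5 kb the shared bases were 69.3% and 62.9% of the lists. Whether this differs from what repeat libraries of 1 condition would give cannot be told with 1 library per group.

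**Figure D5:**
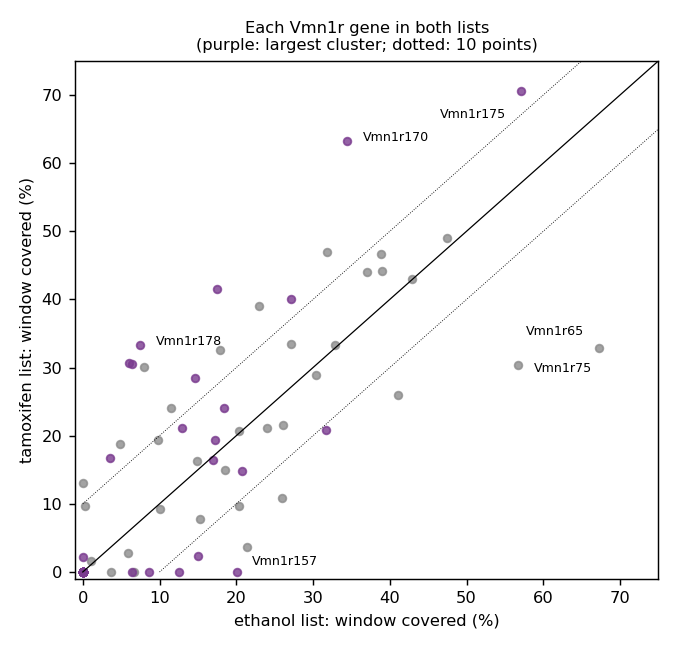
Percent of each Vmn1r gene window covered by peaks in the tamoxifen list (y) against the ethanol list (x), with purple points for the largest cluster, grey points for the other clusters, a solid line for equality and dotted lines 10 points from it. Of the 124 genes, 16 lie above the upper dotted line, 10 below the lower one and 69 at the origin.

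Peaks lay around the receptor genes more than on them in the ethanol list. Mean coverage of the 124 genes without flanks was 4.74% in the ethanol list and 8.27% in the tamoxifen list, and a peak touched 13 and 20 genes. Among the 49 covered members with a known strand, the 5 kb before the start were covered at 23.1% and the 5 kb past the end at 20.9% in the ethanol list. In the tamoxifen list these values were 20.8% and 25.7%. In the first kb from the start, which holds most of the coding sequence, coverage was 9.64% in the ethanol list and 15.3% in the tamoxifen list. Olfactory receptor (Olfr) genes of chromosome 7, which are of similar length, had lower gene than window coverage too, 13.3% against 21.1% in the ethanol list and 17.4% against 22.3% in the tamoxifen list.

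On single genes the cover could differ completely, with or without a difference in the window. Vmn1r71 was completely covered in the ethanol list and not at all in the tamoxifen list, while its window stayed at about the same coverage. Vmn1r67 and Vmn1r75 were also completely covered in the ethanol list and at 0% in the tamoxifen list. Vmn1r185 ran the opposite way, from 0% to complete coverage of the gene. Of the 115 upstream windows, 10 had a peak in the ethanol list and 8 in the tamoxifen list, and 3 had one in both, Vmn1r77, Vmn1r158 and Vmn1r185. The window of Vmn1r175 printed above had none in either list, although 79.0% and 72.4% of the 5 kb before its start were covered.

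The peaks themselves had low significance by the authors' own values. Windows held parts of 105 ethanol-list peaks and 114 tamoxifen-list peaks, and no peak reached into a second member's window. The authors' fold enrichment had a median of 2.55 in the ethanol list and 2.64 in the tamoxifen list, near the 2.59 and 2.61 of the other peaks of chromosome 7. The median of their −log10 q was 1.58 and 1.51, and the highest was 2.87 and 2.99. A −log10 q of 2 or more was reached by 16 peaks (15.2%) and 17 peaks (14.9%), beside 17.95% and 11.2% of the other peaks of the chromosome. At 2 or more the mean difference over the members was -0.0561 points, of the opposite sign, and at 3 or more no peak was left. The widest peaks reached 6577 and 7163 bases.

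Vmn1r genes of 2 other chromosomes were set beside those of chromosome 7. On chromosome 6, 51 Vmn1r genes had means of 19.2% in the ethanol list and 7.03% in the tamoxifen list. Of them, 23 (45.1%) lost over 10 points while 0 gained as much. On chromosome 13, 36 Vmn1r genes had means of 15.5% and 23.8%, with 13 gains (36.1%) and 3 losses (8.33%) of that size. Among all protein-coding genes, 2.4 percent gained and 2.53 percent lost as much. The chromosomes as a whole moved in the same directions. Covered bases in the tamoxifen list were 0.504 times those of the ethanol list on chromosome 6, 1.23 times on chromosome 7 and 1.12 times on chromosome 13, and a difference of the family from its chromosome was not tested. Few of these Vmn1r genes lacked peaks, 7 on chromosome 6 (13.7%) and 1 on chromosome 13 (2.78%), against 69 on chromosome 7 (55.6%). No gene of the chromosome 13 group and 2 of the chromosome 6 group had an upstream window made of repeated words alone. Both of those on chromosome 6 had peaks in both lists, with means of 11.0% and 6.58%, unlike 53 of the 54 such genes on chromosome 7.

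On chromosome 7, 46 Vmn1r pseudogenes had means of 15.5% and 17.8%, and 12 of them had no peak. The 52 Vmn2r genes, which encode the other family of vomeronasal receptors, had means of 16.5% and 14.97%. They had 2 gains (3.85%) and 9 losses (17.3%) of over 10 points. The 239 Olfr genes had means of 21.1% and 22.3%, with 68 gains (28.5%) and 56 losses (23.4%). Genes for vomeronasal signalling and neuron maturation lacked peaks about as often as all protein-coding genes, 7 of 11 (63.6%) beside 64.4%. Trpc2 (the transduction channel), Gnai2 (the G protein subunit of V1R neurons), Gng8, Omp (a marker of mature sensory neurons), Tfap2e, Meis2 and Lhx2 had no peak in the window in either list. The highest of the others was Ano2, at 3.61% and 2.03%.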

How the data were processed

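H3K9me3 was measured in 1 library per condition. Their 2 lists of broad peaks were used. The submitters' processing notes name build mm10, BWA 0.7.17-r1188, MACS2 and ChIPseeker 1.30.3. Caller settings, use of the input libraries and the treatment of multiply mapped reads are not given in the sources used here. Per peak, the deposited values are a score, a fold enrichment (linear ratio), and −log10 of p and q, all as the authors made them. The score and the p were not analysed. The replicate number inside the files differed from the labels, so lists were assigned by condition.

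Overlapping peaks were merged, and covered bases of gene windows were counted with Python 3.11.15, pandas 2.3.3 and numpy 2.4.6, and drawn with matplotlib 3.10.9. The scripts were tested on simulated data. Depth is unknown, so no intervals are given. The members and lists were chosen with earlier results of these data known. Members were named by a rule: the best covered member of each cluster and subfamily, the 6 highest in the ethanol list, the 6 largest losses and gains, and the 3 longest genes without a peak. Other members named were chosen after their values were seen. Alternatives covered the window, peak threshold, list size, peak joining, gene set, size of difference and cluster distance. The input libraries were not analysed here.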

Additional observations from a re-analysis of the deposited data

How the results depend on the processing

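No paired analysis was possible because each condition had 1 library, and for the same reason no library could be left out. The mean difference over the members, 1.01 points, was 3.53 for the gene without flanks and 0.277 with flanks of 20 kb. It was 2.15 with peaks joined within 5 kb and 0.769 with the same number of peaks taken from each list. With pseudogenes it was 1.37, with 1 member per 100 kb 0.751 and without the largest cluster 0.0912. It reversed to -0.0561 with peaks of −log10 q from 2 upward, and from 3 upward no peak was left and all values were 0. Among the 124 members, 16 gains and 10 losses of over 10 points were counted. In that order, the counts were 14 and 5 for the gene alone and 6 and 6 with flanks of 20 kb. They were 5 and 4 with −log10 q from 2 upward, and 6 and 3 for over 20 points. With the same number of peaks from each list they were 15 and 10, and with peaks joined 19 and 15. Other settings changed the number of genes. The counts were 30 and 21 among 170 genes with pseudogenes, and 6 and 4 among 51 with 1 member per 100 kb. Without the largest cluster they were 7 and 6 among 38. These were 18.4% and 15.8%, beside 12.9% and 8.06% of the 124. Counts from sets of different size are not directly comparable. Shares of all protein-coding genes are not given for these settings. With −log10 q from 2 upward the mean difference of the cluster at 10.3 Mb reversed from -2.60 to 0.338 points and that of the cluster at 20.1 Mb from 1.42 to -0.539. That of the distal end of the latter, an alternative chosen after seeing the data, reversed from 9.13 to -2.59. In other clusters the difference grew in its own direction. It went from 0.845 to 2.76 points at 5.1 Mb and from -0.813 to -2.94 at 11.7 Mb. At 13.1 Mb it went from 1.29 to 1.56, and at 26.3 Mb from 7.36 to 18.7. The single gene at 14.6 Mb went from -0.833 to 0. Shared bases in the windows were 69.3% of the ethanol list and 62.9% of the tamoxifen list with peaks joined, and 14.8% and 14.7% with −log10 q from 2 upward. The cause was not tested in any of these. The numbers of clusters were 9 at a distance of 250 kb and 5 at 1 Mb. Words of 30 and 100 bases, chosen after seeing the data, each gave 53 fully repeated members without a peak, as 50-base words did.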
